A study of Homo sapiens with 4 samples.

Results

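This account covers 10 genes that the RAS-ERK route switches on and that, for the most part, switch it off again: the MAP kinase phosphatases DUSP1, DUSP4, DUSP5 and DUSP6, the Sprouty proteins SPRY2 and SPRY4, the SPRED proteins SPRED1 and SPRED2, and the transcription factors EGR1 and FOS. They are 10 of the 18417 genes measured. The group was chosen by a list of known ERK-induced genes and by the higher DUSP4 signal on the siEfp array of Ishikawa cells, so the Ishikawa values are a description and carry no test. Gene expression was measured on 4 arrays, 1 for each of Ishikawa cells with siEfp, Ishikawa cells with siControl, HEC-1A cells with siEfp and HEC-1A cells with siControl. Ishikawa is an ERα-positive, well-differentiated human endometrial adenocarcinoma line, and HEC-1A is an ERα-negative, moderately differentiated one. siEfp is a short interfering RNA against Efp, the ubiquitin ligase encoded by TRIM25, and siControl is the negative control siRNA. Ishikawa RNA was taken 48 h after transfection of the duplex siEfp #A, while the sources used here do not state the duplex or the time for the HEC-1A arrays. All values are log2 signals after RMA, a method that corrects background and brings all arrays to a common distribution. A difference of 1 therefore is 2-fold.

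Growth factor receptors activate RAS, RAF, MEK and ERK in turn, and ERK enters the nucleus and induces immediate-early genes within minutes. EGR1 and FOS are the classical examples of such genes. DUSP phosphatases then remove the phosphates from ERK, while Sprouty and SPRED proteins act further up at the level of RAS and RAF, so that transcripts of these inhibitors are widely used as a readout of ERK pathway output. In endometrium the route is driven by EGF family ligands and fibroblast growth factors and is often activated in carcinoma.

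TRIM25, the targeted gene, had a signal of 7.96 with siEfp and 9.42 with siControl in Ishikawa cells, and of 7.93 with siEfp and 9.50 with siControl in HEC-1A cells. The siEfp array was the lower one in each line, as labelled. The array medians over genes lay between 6.25 and 6.34, and the arrays of a line correlated at 0.992 in Ishikawa and 0.993 in HEC-1A cells over probe sets. Each group had 1 array, so a difference between siEfp and siControl has no replicate check. For several member differences the SD of the same difference over 500 genes of like signal is given as well. It is called the like-signal SD below, describes these arrays and is no replicate error. The arrays measured RNA of whole cultures, in which fewer cells that use a gene and less RNA per cell cannot be told apart.

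The promoter windows of EGR1, FOS and DUSP1 are shown first because these 3 members had a lower siEfp than siControl signal in Ishikawa cells and a higher one in HEC-1A cells. The Ishikawa differences of FOS and DUSP1 were close to 0 (−0.03 and −0.04), and that of DUSP1 was 0.03 after a second quantile normalization. Each window is the stretch of 250 bases before the transcription start in RefSeq (GRCh38.p14), 5′ to 3′ on the strand of the gene. It lies at chr5:138465229-138465478 on the plus strand for EGR1, at chr14:75278578-75278827 on the plus strand for FOS and at chr5:172771196-172771445 on the minus strand for DUSP1. Capitals mark matches, on either strand, to the CArG box bound by serum response factor and to the cyclic AMP response element half-site TGACGT, which reads ACGTCA on the other strand.
EGR1: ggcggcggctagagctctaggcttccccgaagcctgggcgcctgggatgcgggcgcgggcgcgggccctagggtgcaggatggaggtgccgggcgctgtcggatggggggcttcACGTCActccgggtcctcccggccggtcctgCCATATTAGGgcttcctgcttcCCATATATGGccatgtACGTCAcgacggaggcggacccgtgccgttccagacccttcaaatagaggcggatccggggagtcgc
FOS: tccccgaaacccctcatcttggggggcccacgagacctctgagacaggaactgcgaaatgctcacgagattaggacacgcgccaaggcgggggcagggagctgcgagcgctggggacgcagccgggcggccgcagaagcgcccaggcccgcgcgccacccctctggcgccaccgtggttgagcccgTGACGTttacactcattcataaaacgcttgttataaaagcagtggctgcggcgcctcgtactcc
DUSP1: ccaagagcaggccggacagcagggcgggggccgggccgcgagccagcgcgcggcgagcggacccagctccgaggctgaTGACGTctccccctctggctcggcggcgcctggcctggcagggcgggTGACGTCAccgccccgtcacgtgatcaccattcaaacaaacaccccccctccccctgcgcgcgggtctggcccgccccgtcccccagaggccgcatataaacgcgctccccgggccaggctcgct
The EGR1 window held 2 CArG boxes, CCATATTAGG and CCATATATGG, and 2 half-sites. The FOS window held 1 half-site and the DUSP1 window held 3, of which 2 overlap as the palindrome TGACGTCA. Of 35116 RefSeq windows of this length, 1.16% held a CArG box and 7.1% the half-site. The windows were also searched for the AP-1 site TGANTCA, present in 6.57% of all windows, and the ETS site CCGGAA, present in 14.5%. RefSeq windows were matched for 8 of the 10 members, and besides the matches above only SPRY2 had one, an ETS site. A match describes the letters of the window, not binding, and a window without a match lacks only these letters within its 250 bases. Sequence further upstream was not searched.

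No member differed 2-fold between siEfp and siControl in either line. At 2-fold, 0.939% of all genes differed in Ishikawa cells and 0.375% in HEC-1A cells. At 1.5-fold, 0 members stood apart in Ishikawa cells, against 5.21% of all genes, and 1 member, EGR1, stood apart in HEC-1A cells, against 3.37% of all genes. DUSP4 lay just under this threshold in Ishikawa cells, at 1.498-fold. In Ishikawa cells 3 members were higher and 7 lower with siEfp, with a median difference of −0.11 beside 0.01 over all genes. Of all genes, 9616 were higher and 8772 lower there. In HEC-1A cells 5 members were higher and 5 lower, with a median of 0.02 beside 0.01 over all genes, of which 9594 were higher and 8790 lower. Both lines showed the same direction for 6 members: SPRED1 and SPRED2 were higher, and DUSP5, DUSP6, SPRY2 and SPRY4 lower, with siEfp in each. The share of all genes with the same direction in both lines was 57.8%.

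**Figure D1:**
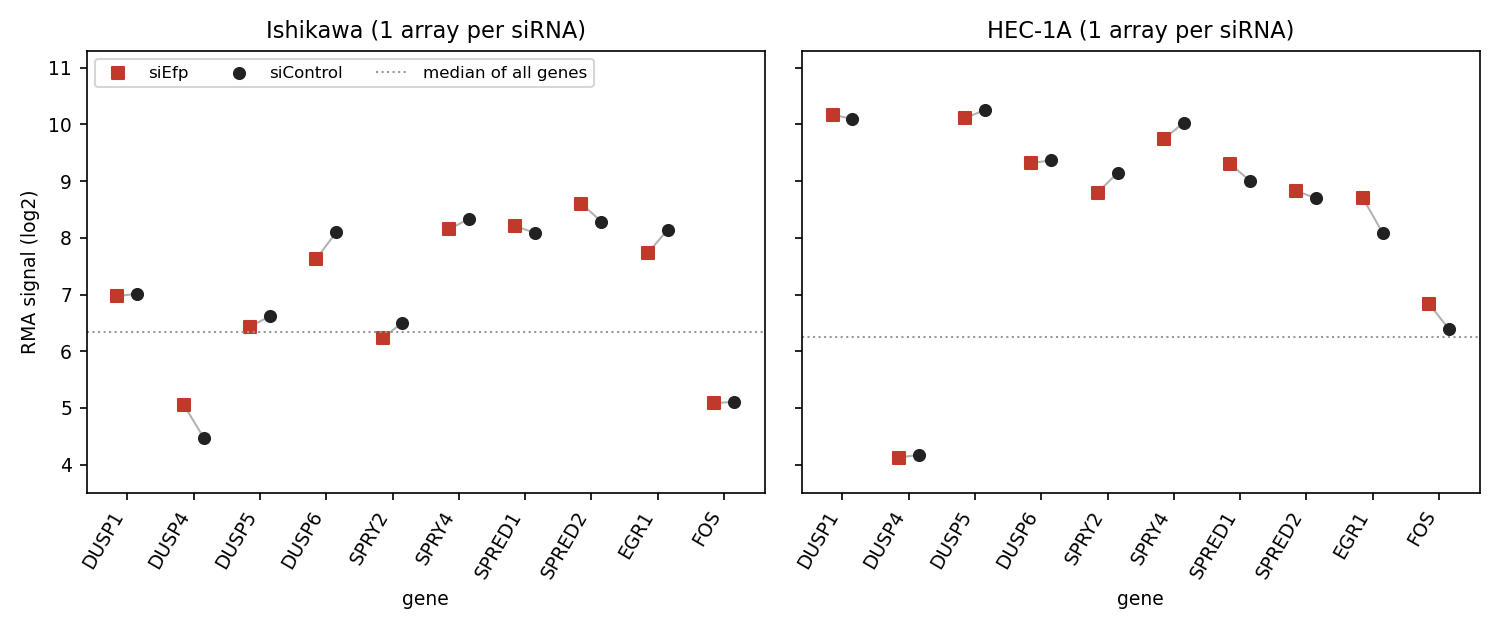
Log2 RMA signal of each of the 10 genes on the 4 arrays, 1 point per array, with siEfp and siControl marked for Ishikawa and HEC-1A cells. The gap between the lines exceeds the gap between siEfp and siControl for DUSP1, DUSP5, DUSP6, SPRY2, SPRY4, SPRED1 and FOS, while DUSP4 stays below the dotted line, the median of all genes, on all 4 arrays.

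Among the phosphatases, DUSP4, a nuclear phosphatase of ERK, JNK and p38, had a signal of 5.06 with siEfp and 4.47 with siControl in Ishikawa cells. The difference of 0.58 was matched or exceeded by 280 of the 18417 genes, and the like-signal SD was 0.26. In HEC-1A cells DUSP4 had 4.12 with siEfp and 4.17 with siControl, a difference of −0.05. The siEfp array of Ishikawa cells was thus the highest of the 4, and all 4 signals were below the median gene of their array. DUSP6, the cytoplasmic phosphatase specific for ERK, had 7.63 with siEfp and 8.09 with siControl in Ishikawa cells, a difference of −0.46 with a like-signal SD of 0.36. In HEC-1A cells it had 9.32 with siEfp and 9.37 with siControl. The siEfp array was the lower one in each line, and the HEC-1A gap was only −0.04. DUSP5, a nuclear phosphatase specific for ERK, had 6.44 with siEfp and 6.62 with siControl in Ishikawa cells, against 10.11 with siEfp and 10.26 with siControl in HEC-1A cells. Its differences of −0.18 and −0.14 were within 1 like-signal SD, and the arrays fell apart by line and not by siRNA. DUSP1, a nuclear phosphatase that also acts on JNK and p38, had 6.97 with siEfp and 7.01 with siControl in Ishikawa cells. In HEC-1A cells it had 10.17 with siEfp and 10.09 with siControl. Both of its differences, −0.04 and 0.08, were small beside like-signal SDs of 0.34 and 0.25.

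Among the membrane-associated inhibitors, SPRY2, which dampens RAS activation by receptor tyrosine kinases, had 6.23 with siEfp and 6.51 with siControl in Ishikawa cells. In HEC-1A cells it had 8.80 with siEfp and 9.15 with siControl. The siEfp array was lower in each line, with differences of −0.27 and −0.35, and the HEC-1A difference exceeded its like-signal SD of 0.22. SPRY4, a Sprouty protein that also restrains RAF activation, had 8.15 with siEfp and 8.33 with siControl in Ishikawa cells. In HEC-1A cells it had 9.74 with siEfp and 10.03 with siControl. The direction was again the same in both lines, with differences of −0.18 and −0.29, the second just past its like-signal SD of 0.27. SPRED1, which brings the RAS inactivator neurofibromin to the membrane, had 8.21 with siEfp and 8.09 with siControl in Ishikawa cells, against 9.303 with siEfp and 9.003 with siControl in HEC-1A cells. SPRED2, its close relative, had 8.60 with siEfp and 8.29 with siControl in Ishikawa cells, against 8.83 with siEfp and 8.69 with siControl in HEC-1A cells. Both SPRED genes were higher with siEfp in each line, SPRED1 by 0.12 and 0.30 and SPRED2 by 0.32 and 0.13. Of these 4 values only that of SPRED1 in HEC-1A cells exceeded its like-signal SD, of 0.25. The Sprouty and SPRED pairs thus had opposite signs, each sign the same in both lines.

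The transcription factors EGR1 and FOS showed the widest gap between the lines in the siEfp difference together with DUSP4. EGR1, a zinc finger factor, had 7.73 with siEfp and 8.14 with siControl in Ishikawa cells, a difference of −0.40 with a like-signal SD of 0.33. In HEC-1A cells it had 8.70 with siEfp and 8.09 with siControl, a difference of 0.62 or 1.53-fold, which 193 of the 18417 genes matched or exceeded. The like-signal SD of EGR1 there was 0.27. The HEC-1A siEfp array was the highest of the 4 and the Ishikawa siEfp array the lowest, while the siControl arrays of both lines lay 0.05 apart. FOS, a subunit of the AP-1 factor, had 5.08 with siEfp and 5.11 with siControl in Ishikawa cells, both below the median gene of the array. In HEC-1A cells it had 6.84 with siEfp and 6.39 with siControl, a difference of 0.45 that 657 genes matched or exceeded, with a like-signal SD of 0.29. FOS was thus higher with siEfp in HEC-1A cells and nearly level in Ishikawa cells, and both HEC-1A arrays lay above both Ishikawa arrays. The Ishikawa difference minus the HEC-1A difference was −1.02 for EGR1, −0.48 for FOS and 0.63 for DUSP4. With 1 array per group these gaps have no test.

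**Figure D2:**
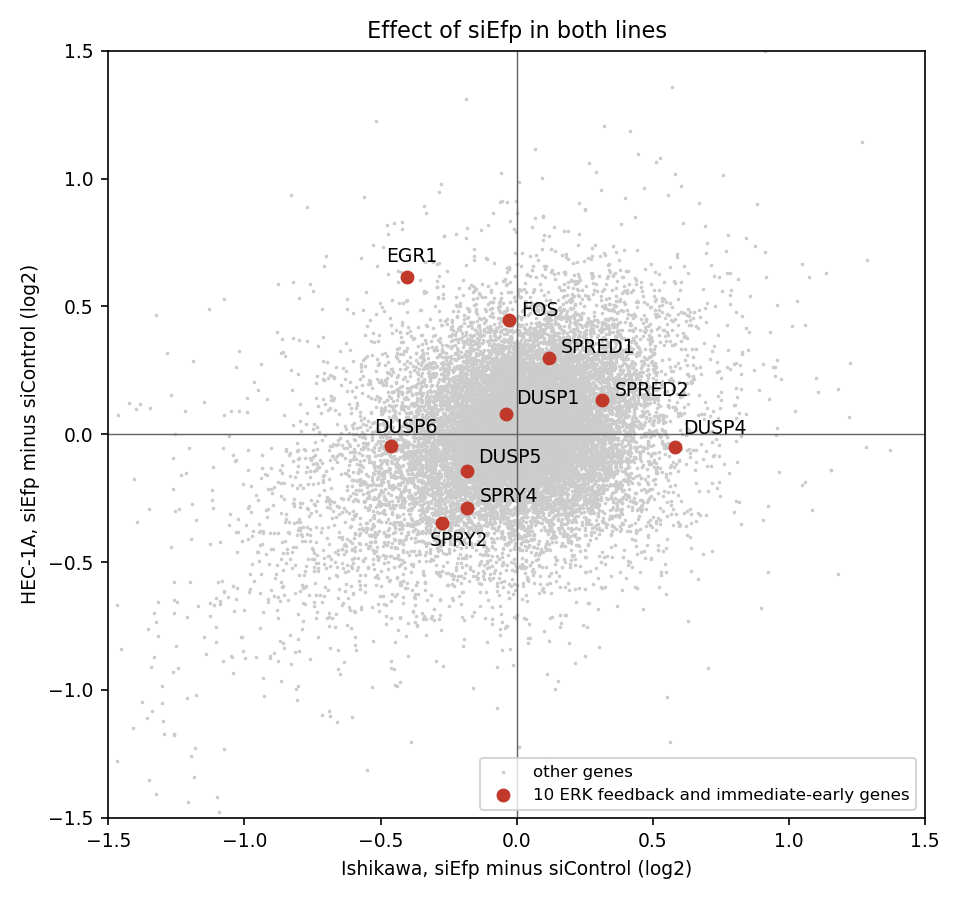
siEfp minus siControl (log2) in Ishikawa cells on the horizontal axis and in HEC-1A cells on the vertical axis, with all genes as grey points and the 10 members named. EGR1 lies upper left at −0.40 and 0.62 and DUSP4 to the right at 0.58 and −0.05, and the axes leave out 36 genes beyond 1.5.

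Between the lines, the signals of most members were lower in Ishikawa than in HEC-1A cells. Besides DUSP4, 7 of 9 members were called higher in HEC-1A cells and 0 higher in Ishikawa cells (limma with the siRNA as a block, Benjamini-Hochberg adjusted p under 0.05 over 18417 genes). Of all genes, 18.3% were called higher in HEC-1A cells and 17% higher in Ishikawa cells. The median difference, Ishikawa minus HEC-1A, was −1.52 over these 9 members and −0.01 over all genes. The 2 arrays of a line differ in siRNA, so the test has 1 residual degree of freedom besides the variance shared over genes. With the siRNA as a block, that degree of freedom measures how far the siEfp difference differs between the lines. No replicate cultures enter the spread. A wide SE, as for EGR1 (0.23), therefore goes with unlike siEfp differences in the 2 lines.

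DUSP5 differed most, with a difference of −3.66 ± 0.12 (SE, 2 arrays per line, adjusted p = 6.857e-06), or 12.6-fold. DUSP1 was 8.82-fold lower in Ishikawa cells, a difference of −3.14 ± 0.12 (adjusted p = 1.131e-05). For both phosphatases the lowest HEC-1A array lay above the highest Ishikawa array by over 3 log2 units. DUSP6 was 2.79-fold lower in Ishikawa cells (−1.48 ± 0.15, adjusted p = 0.0004526). Among the inhibitors of RAS activation, SPRY2 was 6.08-fold lower in Ishikawa cells (−2.60 ± 0.12, adjusted p = 1.966e-05), SPRY4 was 3.13-fold lower (−1.65 ± 0.12, adjusted p = 0.0001363) and SPRED1 was 2.01-fold lower (−1.01 ± 0.13, adjusted p = 0.001254). SPRED2 was not called, at −0.32 ± 0.13 (adjusted p = 0.0999), although its 2 Ishikawa arrays were both below its 2 HEC-1A arrays. FOS was 2.86-fold lower in Ishikawa cells (−1.52 ± 0.15, adjusted p = 0.0004923). EGR1 was not called, at −0.46 ± 0.23 (adjusted p = 0.187), and its arrays overlapped between the lines.

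DUSP4 was the exception in direction. Its signal was 0.62 ± 0.17 higher in Ishikawa cells (adjusted p = 0.03205), with a difference of 0.93 between the siEfp arrays and 0.30 between the siControl arrays. Because the gene was selected on the Ishikawa siEfp array, this value is a description. Without that array the difference was 0.33 and was not called (adjusted p = 0.215). Without the siEfp array of HEC-1A cells it was 0.59 (adjusted p = 0.254), and without the siControl array of HEC-1A cells it was 0.64 (adjusted p = 0.224), about as large as with all arrays but not called. Fits that leave out an array have no siRNA block, and with all 4 arrays and no block the difference of 0.62 was not called either (adjusted p = 0.0731).

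**Figure D3:**
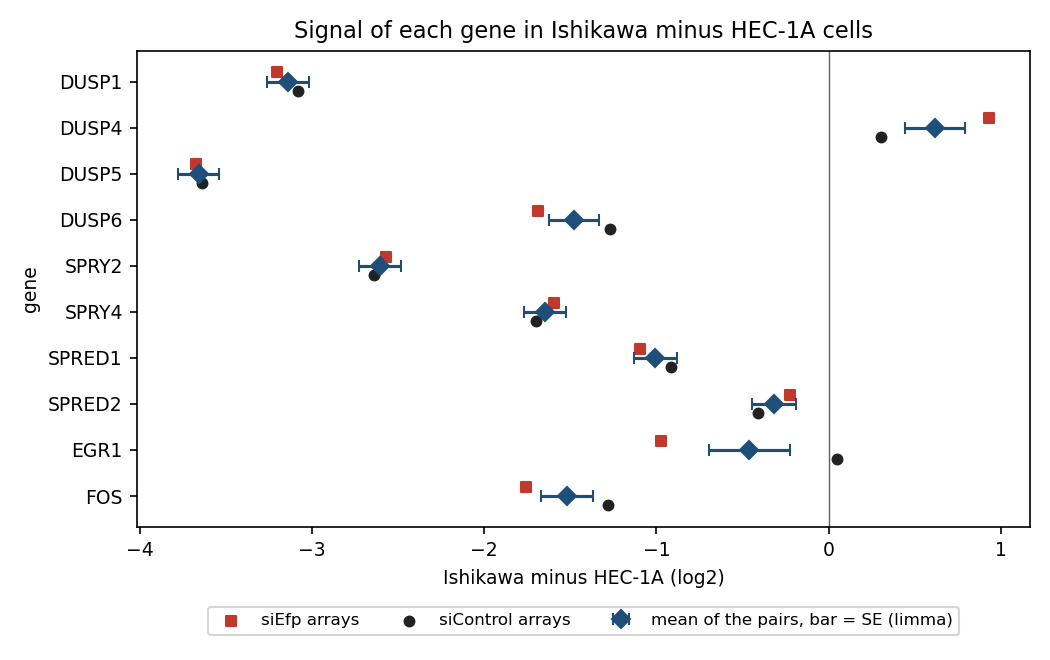
Ishikawa minus HEC-1A signal (log2) of each member, with squares for the siEfp arrays, circles for the siControl arrays, and diamonds with bars for the mean of both pairs and its SE. The mean lies below 0 for 9 of the 10 genes, from −0.32 for SPRED2 to −3.66 for DUSP5, and for 9584 of all 18417 genes. DUSP4 lies above 0, and the EGR1 pairs lie on both sides of 0.

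The same comparison was made for other genes of the route, taken from lists drawn up for it with earlier results of these data known. Of the genes named here, ETV5 was added after its value was seen. The lists share FOSL1, IER3, MYC, SPRY1 and SRF. Among 14 other genes used as MEK-ERK output, the median difference was −1.52, with 9 called higher in HEC-1A cells and 2 higher in Ishikawa cells. The ETS factors ETV1 (−4.04, adjusted p = 9.261e-06), ETV4 (−2.80, adjusted p = 3.6e-05) and ETV5 (−2.07, adjusted p = 0.000304) were all lower in Ishikawa cells, as were the stress-response gene IER3 (−5.04) and the AP-1 subunit FOSL1 (−3.03). GPRC5A, an orphan receptor, was higher in Ishikawa cells by 1.76. Among 31 other immediate-early genes the median was −0.57, with 17 called higher in HEC-1A cells and 0 higher in Ishikawa cells, the matricellular gene CCN2 (−3.31) among them. Of 7 EGF family ligands, 3 were called higher in HEC-1A cells, led by EREG (−5.32) and HBEGF (−1.93), and 2 higher in Ishikawa cells, one of them TGFA (1.24).

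The remaining lists had smaller median differences. Their called counts stand beside 17% of all genes called higher in Ishikawa cells and 18.3% called higher in HEC-1A cells. Of 6 other MAP kinase phosphatases, 2 were called higher in Ishikawa cells, DUSP8 (0.91), which acts on JNK and p38, and DUSP7 (0.50), which acts on ERK, and 0 higher in HEC-1A cells, with a list median of 0.24. The 3 other Sprouty and SPRED genes all had a lower mean signal in Ishikawa cells (median −0.32), and only SPRED3 was called, at −0.50 (adjusted p = 0.0355), while SPRY1 stood at −0.32 (adjusted p = 0.196). Among 11 of 12 other listed inhibitors of RAS and ERK the median was −0.32, and 5 were called higher in HEC-1A cells, such as the ubiquitin ligase CBL (−1.26), and 3 higher in Ishikawa cells, such as the receptor inhibitor LRIG1 (1.35). For the 14 of 20 listed genes of the cascade itself that were measured, the median was 0.19, with 5 called higher in Ishikawa cells, among them MAPK3, which encodes ERK1 (0.80), and 2 higher in HEC-1A cells. ERK substrates and nuclear effectors had a median of −0.20 and gave 3 of 16 higher in Ishikawa cells, led by the kinase RPS6KA2 (2.22), and 6 higher in HEC-1A cells, led by ETS1 (−2.23). JNK and p38 kinases had a median of 0.05 and gave 3 of 11 higher in Ishikawa cells, led by MAP2K6 (1.93), and 2 higher in HEC-1A cells.

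Epithelial markers also differed between the lines. Of 6 markers, 4 were called higher in Ishikawa cells and 0 higher in HEC-1A cells, with a log2 of the summed signal of 13.7 and 13.9 on the Ishikawa arrays and of 12.7 and 13.0 on the HEC-1A arrays. CDH1, the adhesion protein E-cadherin, had 9.62 with siEfp and 10.22 with siControl in Ishikawa cells, against 3.74 with siEfp and 4.07 with siControl in HEC-1A cells, while KRT8, KRT18 and PAX8 were well above the array median on all 4 arrays. The 10 stromal, endothelial and immune markers summed to 8.46 and 8.50 on the Ishikawa arrays and 7.97 and 8.05 on the HEC-1A arrays. The leukocyte gene PTPRC and the endothelial gene PECAM1 were near 3 on every array, whereas the collagen gene COL1A1 was above the median gene on all 4. Of these 10 markers, 2 were called higher in Ishikawa cells, COL1A1 (0.91) and the endothelial gene VWF (0.86), and 0 higher in HEC-1A cells. VWF was below the median gene on all 4 arrays. ESR1, which encodes ERα, was higher in Ishikawa cells by 2.17 (adjusted p = 0.000154) as the mean of 2 unlike probe sets, which differed by 3.74 and 0.60. Of the other markers listed for ERα status, GREB1 was called higher in Ishikawa cells, by 0.46. PGR (−0.03) and TFF1 (−0.10) were not called, and GREB1, PGR and TFF1 were below the median gene on all 4 arrays. The part of these markers in the differences above was not tested.

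**Figure D4:**
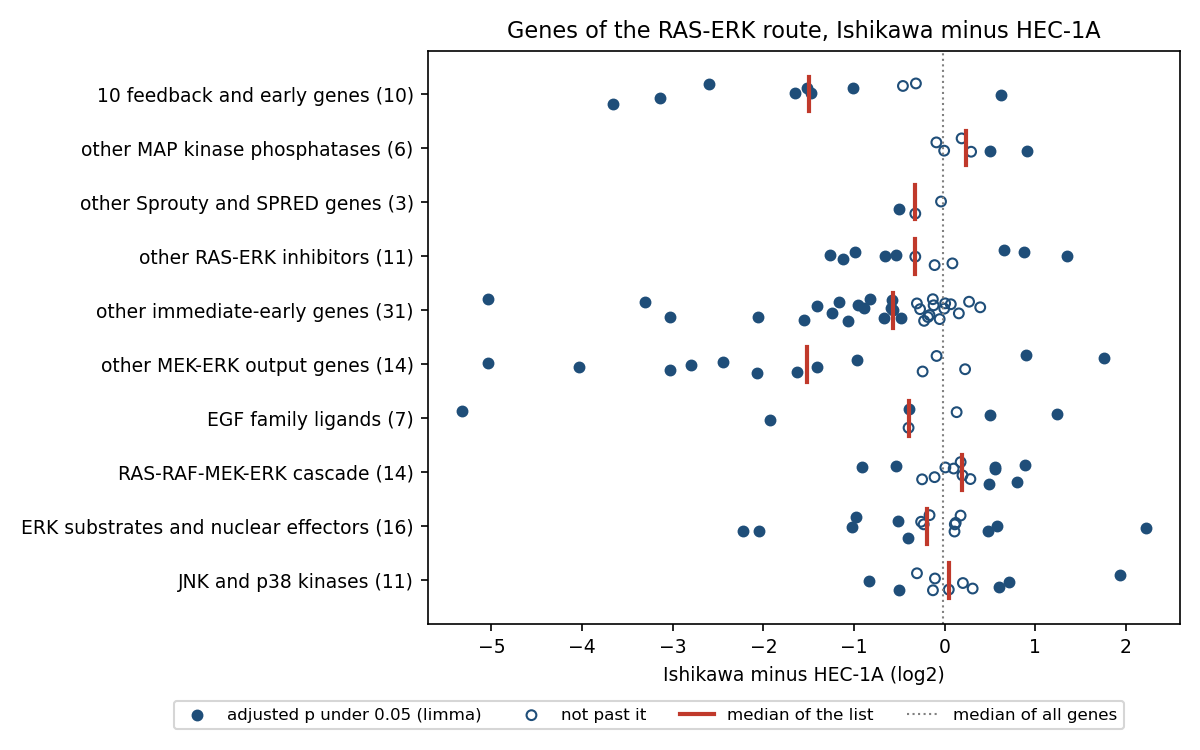
Ishikawa minus HEC-1A signal (log2) of every measured gene in 10 lists, 1 list per row with its number of genes, filled where the limma adjusted p was under 0.05 and open otherwise, with the list median as a bar. The median lies at −1.498 for the 10 members and −1.52 for the other MEK-ERK output genes, against 0.24 for the other MAP kinase phosphatases and 0.19 for the cascade.

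Of the related genes, all 6 other MAP kinase phosphatases were higher with siEfp in HEC-1A cells, with a median of 0.25, beside 9594 of all 18417 genes. DUSP10 (0.01) and DUSP8 (0.08) were nearly level there. DUSP10 and DUSP9 (0.34) were below the median gene on all 4 arrays, and only 3 of the 6 genes reached it on every array. In Ishikawa cells 4 of 6 were higher, with a median of 0.11, beside 9616 of all genes. DUSP8 had 7.78 with siEfp and 7.31 with siControl in Ishikawa cells, against 6.67 with siEfp and 6.60 with siControl in HEC-1A cells. SPRY1, a further Sprouty gene, had 7.29 with siEfp and 8.10 with siControl in Ishikawa cells, against 7.91 with siEfp and 8.12 with siControl in HEC-1A cells. It was lower with siEfp in each line, with differences of −0.81 and −0.21, the direction of SPRY2 and SPRY4. SPRY3 (0.07 in Ishikawa cells and −0.08 in HEC-1A cells) and SPRED3 (0.12 and −0.29) had opposite signs in the lines, so SPRY1 was 1 of 3 with the same sign in both. SPRY3 and SPRED3 were below the median gene on all 4 arrays. CBL was likewise lower in each line, with differences of −0.65 and −0.29.

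Among the other immediate-early genes, 12 were higher and 19 lower with siEfp in Ishikawa cells (median −0.11), and 13 were higher and 18 lower in HEC-1A cells (median −0.01). MYC, a growth-promoting transcription factor, had 8.67 with siEfp and 9.67 with siControl in Ishikawa cells, just past 2-fold, against 10.48 with siEfp and 10.67 with siControl in HEC-1A cells. CCN1 differed by −0.59 in Ishikawa cells and −0.82 in HEC-1A cells, and CCN2 by −0.25 and −0.67, so both matricellular genes were lower with siEfp in each line. ZFP36, which destabilises AU-rich messages, was higher by 0.62 in Ishikawa cells and differed by −0.00 in HEC-1A cells. Of the 14 other MEK-ERK output genes, 7 were higher and 7 lower in Ishikawa cells, and 5 were higher, 8 lower and 1 equal in HEC-1A cells. GPRC5A (−0.97) and ETV4 (−0.82) were among the lower ones in Ishikawa cells, and ETV1 (0.69) and EPHA2 (0.62) among the higher ones in HEC-1A cells. Of the ERK effectors, ETS2 differed by −1.19 in Ishikawa cells and −0.27 in HEC-1A cells, whereas ETS1 stood at 0.21 in Ishikawa cells and −0.89 in HEC-1A cells and RPS6KA5 at −0.19 and 0.77. The scaffold LAMTOR3 was higher in each line, by 0.49 and 0.59. Among the EGF family ligands BTC was higher by 0.27 in Ishikawa cells and 0.69 in HEC-1A cells, and NRG1 differed by −0.66 and −0.45. None of the 11 JNK and p38 kinases differed 1.5-fold in either line, and their medians were 0.01 and 0.02.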

How the data were processed

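The values deposited by the authors are log2 signals of probe sets on 4 arrays, each run on 150 ng of total RNA. The submitters' processing notes name Affymetrix Expression Console and RMA, and the sources used here state no version or build. Probe sets are numbered as on the Human Gene 1.0 ST array, although the study's methods name Human Exon 1.0 ST. RMA compresses the differences of dim probe sets. Probe sets with exactly 1 gene symbol (19460 of 33297, 1754 with several and 12083 with none) were used, and their mean was taken for each of 18417 genes, of which 769 had several probe sets. Of these probe sets, 19429 matched RefSeq (GRCh38.p14), and 0 symbols changed. The siEfp minus siControl difference was taken in each line without a test and counted at 2-fold. The lines were compared with limma 3.58.1 (R 4.3.3, eBayes, siRNA as a block, Benjamini-Hochberg over all genes, adjusted p under 0.05) and summarised in Python 3.11.15. The limma script was tested on simulated data. Members and lists were chosen with earlier results of these data known. Named genes are all members, TRIM25, the genes of each list at least 1.5-fold apart between siEfp and siControl in a line or else the highest and the lowest, and up to 3 genes of a list with the largest called difference between the lines. Cell markers came from a separate list. ETV5 and SPRY3 were named outside this rule after their values were seen. Of the genes printed, IER3, NRG1, SPRY3, ESR1, KRT18 and PECAM1 have several probe sets. Alternatives were another fold threshold, no siRNA block, an intensity trend, a second quantile normalization, the brightest probe set, no dim genes, each array left out and adjusted p under 0.01.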

Additional observations from a re-analysis of the deposited data

Results flagged for a closer look

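In 4 members the siEfp difference had opposite signs in the lines, and the gap between the lines was not tested, since each group has 1 array. The sign was the same in both lines for 60% of the members and 57.8% of all genes, so the shares were close. With a second quantile normalization DUSP1 was higher with siEfp in both lines, by 0.03 in Ishikawa and 0.07 in HEC-1A cells. The Ishikawa difference minus the HEC-1A difference was −0.12 for DUSP1, 0.63 for DUSP4, −1.02 for EGR1 and −0.48 for FOS. Of all genes, 0.543% had a lower value than EGR1 in this quantity and 97.51% a lower value than DUSP4. DUSP4 was selected on its Ishikawa value.

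Signs were also opposite in the following genes of the other lists, with no test of the difference. Below 0 was the gap of DUSP16 (−0.59), DUSP10 (−0.12), BTG1 (−0.65), MAPK3 (−0.21), RPS6KA5 (−0.96), RPS6KA2 (−0.63), ERF (−0.27), HBEGF (−0.33), TGFA (−0.066), MAPK8 (−0.47), MAPK13 (−0.17) and ETV5 (−0.72). Above 0 was the gap of SPRED3 (0.41), LRIG1 (0.78), PTPN12 (0.33), ZFP36 (0.63), IER3 (0.38), FOSL1 (0.15), ETS1 (1.11), EREG (0.62) and SPRY3 (0.14). For DUSP1, DUSP4, FOS, DUSP10, ZFP36, IER3, MAPK3, TGFA, MAPK8 and MAPK13, at least 1 of the differences lay within 0.05 of 0.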

How the results depend on the processing

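Each siEfp difference rests on 1 array per group, and dim genes such as DUSP4 and, in Ishikawa cells, FOS limit what can be read from small differences. Within a line, siEfp and siControl arrays could not be paired by replicate, because the labels number no replicates and each group has 1 array. The line comparison has the siRNA as a block, and siEfp minus siControl over both lines with the line as a block was not tested, since the members were chosen on its Ishikawa values. At 1.5-fold, 274 genes were higher and 686 lower with siEfp in Ishikawa cells, and 246 were higher and 375 lower in HEC-1A cells, 1 of them a member (EGR1). At 2-fold the counts were 25 higher and 148 lower in Ishikawa cells, and 19 higher and 50 lower in HEC-1A cells, where 12 were higher without dim genes. Between the lines, 3362 genes were called higher in HEC-1A cells and 2016 at adjusted p under 0.01. Leaving out 1 array gave 1184 to 1971 genes higher in HEC-1A cells and 1417 to 1952 higher in Ishikawa cells, against 3124 with all arrays. These fits have no siRNA block, and the lone array of a line is assumed to vary like the pair of the other line. DUSP1, DUSP5, DUSP6, SPRY2, SPRY4, SPRED1 and FOS were called in each of the 10 alternatives with a test. The DUSP4 line difference was also not called at adjusted p under 0.01, and its adjusted p ranged between 0.0179 and 0.254 over the alternatives. With the siControl arrays only, an alternative chosen after seeing the data, the EGR1 line difference was 0.0512, against −0.46 over all arrays and −0.97 between the siEfp arrays. With a second quantile normalization the DUSP1 difference in Ishikawa cells was 0.03 against −0.04.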
